A study of Sus scrofa with 9 samples.

Results

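The enzymes described here are the cholesterol synthesis genes HMGCS1, MVD, IDI1, FDPS, FDFT1, SQLE, LSS and DHCR7, followed in the abdominal aorta of Tibetan minipigs, a small pig breed. The 8 genes were chosen by name. A row carried the symbol of 6 of them, and IDI1, whose row carries only its gene ID, was matched through that ID, which gave 7 of the 21357 genes listed. LSS was not analysed here. For NC and H24 the methods give male pigs bought at a few months of age. Vessels from the end of the abdominal aorta were profiled by RNA-seq with 3 libraries in each of 3 groups. NC pigs, the normal controls, ate a normal diet for 24 weeks. H8 pigs, labelled hypercholesterolemia, ate the high-fat diet for 8 weeks, and H24 pigs, labelled atherosclerosis, ate it for 24 weeks. For the H24 pigs the paper's methods describe this feed as basal feed with added shortening, cholesterol and egg yolk powder, and state that the sequenced pigs were picked at random from larger groups. H8 is known from the labels alone. Since NC pigs were on their feed for 24 weeks, diet and time on study cannot be told apart in H8 against NC.

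Cells make cholesterol from acetyl-CoA in a long series of steps in the cytosol and the endoplasmic reticulum. The first steps give mevalonate, the next ones convert it into activated isoprene units that are joined into farnesyl diphosphate, farnesyl diphosphate is then joined head to head into squalene, and squalene is oxidised, cyclised to lanosterol and trimmed to cholesterol. When sterols in the membrane of the endoplasmic reticulum are scarce, the transcription factor SREBP-2, encoded by SREBF2, is released and raises transcription of nearly the whole series. Plentiful sterol holds SREBP-2 back through the INSIG proteins, and oxidised sterols switch on the liver X receptors, which raise the cholesterol exporters ABCA1 and ABCG1.

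The libraries held 44094263 to 75787978 counts. The enzymes had between 79 and 4579 counts in a library, so counting error was small beside the spread between pigs. H24 replicate 3 stood apart: its log2 expression correlated with that of the other H24 libraries at 0.831 and 0.782, while those correlated with each other at 0.924, and its summed FPKM of 8 smooth muscle markers was 1766 against 8277 and 12129. H8 replicate 2 had a summed FPKM of 12 macrophage markers of 42.9, inside the NC range of 28.4 to 47.6, while the other H8 libraries had 159 and 270.1. Smooth muscle markers, the defining genes of the aortic wall, were present in every library.

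In NC the 7 enzymes were moderately expressed. FPKM, which divides reads by transcript length and library depth, makes levels comparable between genes. IDI1 (isopentenyl-diphosphate isomerase, which interconverts the isoprene units) was the highest at 9.64 ± 1.28 FPKM (SD, n = 3). It was followed by FDPS (farnesyl diphosphate synthase) at 8.53 ± 0.605, FDFT1 (squalene synthase) at 8.46 ± 1.48, HMGCS1 (HMG-CoA synthase, an early step on the way to mevalonate) at 6.39 ± 1.13 and MVD (mevalonate diphosphate decarboxylase) at 5.71 ± 1.44. Each of these 5 overlapped its neighbour in this order. SQLE (squalene epoxidase, the first oxidation of squalene) came next at 3.64 ± 0.506 and DHCR7 (the reductase of 7-dehydrocholesterol, a last step) was lowest at 1.51 ± 0.210, both without overlap with the gene above. Among genes with a mean NC level of at least 0.1 FPKM, DHCR7 stood at percentile 29.9, SQLE at 46.6 and IDI1 at 70.3.

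**Figure D1:**
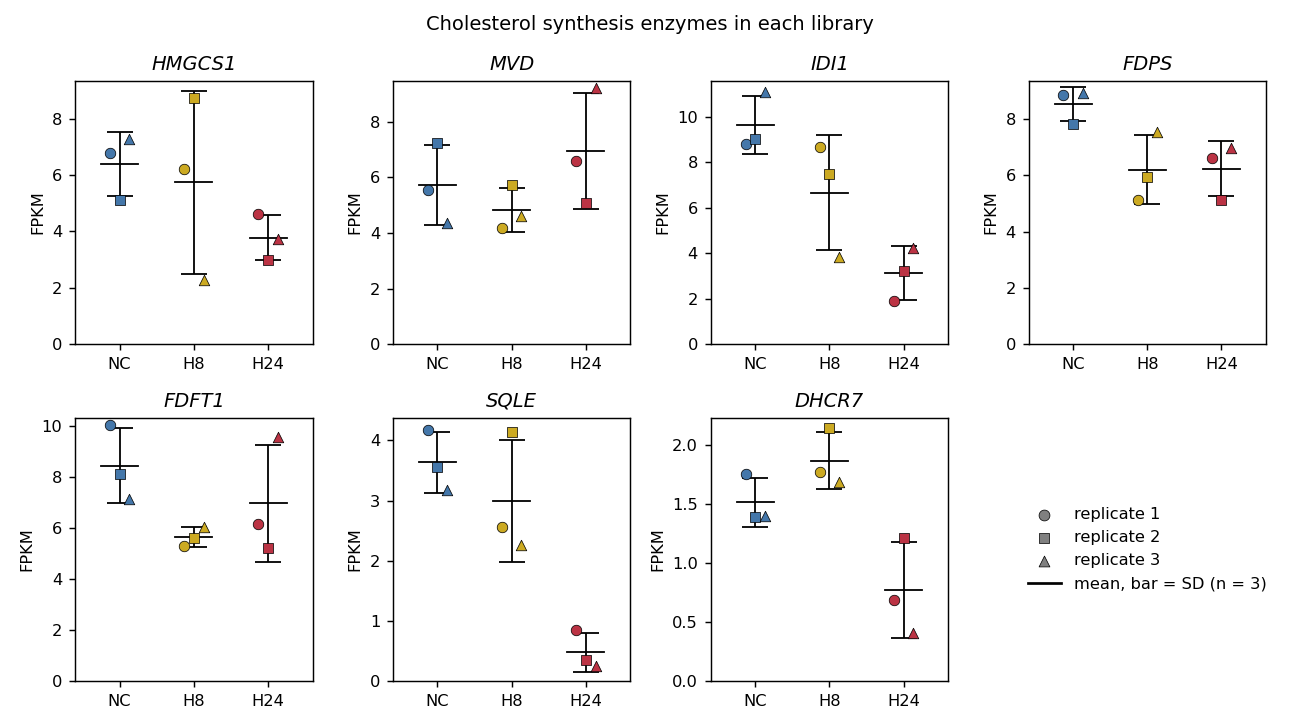
FPKM (vertical axis, linear from 0) of the 7 enzymes in the NC, H8 and H24 libraries, with a point per library, a line at the group mean and a bar of 1 SD (n = 3). SQLE lies between 0.240 and 0.845 FPKM in H24 and at or above 2.26 in every other library, while MVD and FDFT1 overlap between NC and H24.

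The comparison of H24 with NC asks how the long high-fat diet and its lesions went with the enzymes' transcripts. SQLE and IDI1 fell, SQLE 7.79-fold and IDI1 3.12-fold. These 2 of 7 enzymes were called lower, that is, edgeR's quasi-likelihood test gave an unadjusted p under 0.05 and the level changed by more than 1 on the log2 scale. Among all genes tested 1.52% were called lower. At an unadjusted p under 0.05 alone, 4 of 7 were lower (HMGCS1, IDI1, FDPS and SQLE; 2.84% of all genes), and no enzyme was higher (11% of all genes). Every H24 library lay below every NC library in 5 of 7 enzymes, the same 4 and DHCR7, against 7.8% of all genes. The fitted difference was negative in 6 of 7 (49.4% of all genes), with a median of -0.78 on the log2 scale against 0.01 over all genes tested. After Benjamini-Hochberg adjustment over all genes, 0 of the 7 passed in edgeR, as did 0% of all genes with a log2 change beyond 1. DESeq2 passed 3 as lower (HMGCS1, IDI1 and SQLE), with 0.784% of all genes given an adjusted p. Limma on log2(FPKM + 0.1) passed 0, with 0.00674% of all genes.

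SQLE was the enzyme with the largest difference. It encodes squalene epoxidase, which puts oxygen on squalene and is counted among the controlled steps of the pathway. Its row lies on chromosome 4 (14667848 to 14700221, minus strand, Sscrofa11.1). The NC libraries had 4.18, 3.56 and 3.18 FPKM in replicates 1 to 3, and the H24 libraries 0.845, 0.340 and 0.240. The H24 values rest on 79 to 300 counts, well above the floor of 3 counts. On the log2 scale the difference was -2.96 (SE 0.50, 95% interval -4.14 to -1.78, edgeR adjusted p = 0.132). The groups were far apart in every library, and SQLE moved from the sixth level among the 7 enzymes in NC to the last in H24, where it overlapped DHCR7. Without H24 replicate 3 the log2 difference was -2.64 (edgeR adjusted p = 0.0277), and without H24 replicate 1 it was -3.63.

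IDI1, on chromosome 10 (68534517 to 68539280, plus strand), makes the 2 isoprene units available in the ratio that farnesyl diphosphate synthase needs. It was measured at 8.79, 9.02 and 11.12 FPKM in NC, with 1.88, 3.21 and 4.25 in H24. The highest H24 library lay below the lowest NC library by a wide margin. The log2 fold change was -1.64 (SE 0.36, edgeR adjusted p = 0.134). Without H24 replicate 3, in which IDI1 was the highest of H24, it was -1.93 (edgeR adjusted p = 0.0424). SQLE and IDI1 were called lower in each of the 10 other settings and in each of the 6 fits without a library.

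HMGCS1 and FDPS differed less. HMGCS1 (chromosome 16, 27936229 to 27957227, minus strand) had 6.77, 5.12 and 7.29 FPKM in NC and 4.61, 2.998 and 3.72 in H24. Its log2 difference was -0.78 (SE 0.24, edgeR adjusted p = 0.234), short of the fold threshold. FDPS (chromosome 4, 94489208 to 94513941, minus strand), which joins isoprene units into farnesyl diphosphate for sterols and for prenylated proteins, had 8.85, 7.84 and 8.91 FPKM in NC and 6.61, 5.13 and 6.96 in H24. The log2 difference of FDPS was -0.48 (SE 0.20, edgeR adjusted p = 0.360). No H24 value of either gene reached the lowest NC value. FDPS overlaps RUSC1 on the same strand, and reads in the shared part may be assigned to either gene. RUSC1 had 4.05 to 8.88 FPKM in NC and 2.76 to 8.66 in H24.

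MVD and FDFT1 did not separate the groups. MVD (chromosome 6, 1008100 to 1014302, plus strand), which closes the mevalonate steps by giving isopentenyl diphosphate, had 5.54, 7.24 and 4.36 FPKM in NC and 6.598, 5.07 and 9.20 in H24, a log2 difference of 0.26 (95% interval -0.55 to 1.06, edgeR adjusted p = 0.793). The positive sign came from H24 replicate 3, without which the difference was -0.0040. FDFT1 (chromosome 14, 14967273 to 15104179, plus strand), the step at which farnesyl diphosphate is committed to sterols, had 10.1, 8.14 and 7.16 FPKM in NC and 6.16, 5.21 and 9.58 in H24, a log2 difference of -0.30 (95% interval -0.97 to 0.38, edgeR adjusted p = 0.695). Here too replicate 3 was the highest of H24, and without it the difference was -0.60 (edgeR adjusted p = 0.371). Both intervals reach a log2 change of about 1 in size. The row of FDFT1 spans CTSB, a lysosomal protease gene on the other strand, which had 113 to 163 FPKM in NC, 356 and 311 in H24 replicates 1 and 2 and 1507 in H24 replicate 3. Whether the counting used strand is not given in the sources used here, so reads of FDFT1 and CTSB cannot be told apart where they overlap.

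DHCR7 (chromosome 2, 2357714 to 2394851, plus strand), which reduces 7-dehydrocholesterol to cholesterol and so also draws on the precursor of vitamin D, had 1.76, 1.39 and 1.398 FPKM in NC. In H24 it had 0.684, 1.21 and 0.409. Every H24 library lay below NC, replicate 2 narrowly. The log2 difference of -0.99 (SE 0.45, 95% interval -2.05 to 0.07, edgeR adjusted p = 0.392) was not called, and leaving out a single H24 library moved it both ways. It was -0.69 without H24 replicate 3 (edgeR adjusted p = 0.617) and -0.89 without replicate 1 (edgeR adjusted p = 0.460), neither called, and without replicate 2 it was -1.51 (edgeR adjusted p = 0.118) and was called. DHCR7 overlaps NADSYN1 on the other strand, which had 8.60 to 12.3 FPKM in NC and 7.78 to 9.65 in H24, a log2 difference of -0.21 (edgeR adjusted p = 0.742).

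In H8 against NC the enzymes differed little. None of the 7 was called lower (2.27% of all genes were), none was called higher (5.11% of all genes), and DESeq2 and limma also called 0. Of 14336 genes tested DESeq2 called 365 lower and 791 higher. Limma called 505 and 454 on log2(FPKM + 0.1) and 141 and 202 on log2(FPKM + 1). At an unadjusted p under 0.05 FDFT1 alone was lower (5.92% of all genes), with a log2 fold change of -0.44 (SE 0.17, edgeR adjusted p = 0.302). FDFT1 had 5.30, 5.63 and 6.06 FPKM in H8, all below its NC values. The median log2 fold change of the 7 was -0.12, with 0.01 over all genes. The FPKM scale itself moved the median of all genes by -0.12 in this comparison, so FPKM values of H8 read slightly low against NC.

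SQLE had 2.56, 4.15 and 2.26 FPKM in H8, the second of which lay inside the NC range, and its log2 difference from NC was -0.12 (95% interval -0.83 to 0.59, edgeR adjusted p = 0.893). IDI1 had 8.69, 7.49 and 3.84 FPKM, all below NC, with a log2 difference of -0.38 (95% interval -1.15 to 0.39, edgeR adjusted p = 0.628). FDPS had 5.14, 5.95 and 7.52 FPKM, also all below NC, with -0.32 (SE 0.17, edgeR adjusted p = 0.427). Thus 3 of 7 enzymes were below NC in every H8 library in FPKM (15.9% of all genes). On CPM values with TMM scaling, which takes that shift out, 2 were (FDPS and FDFT1; 10.9% of all genes).

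HMGCS1 was the most variable enzyme in H8, at 6.21, 8.73 and 2.27 FPKM, so that its H8 libraries held both the highest and the lowest value of all 9. Its log2 difference from NC of 0.02 (95% interval -1.07 to 1.11, edgeR adjusted p = 0.991) had the widest interval of the 7, and with scaling by library size only it was -0.17. MVD had 4.16, 5.70 and 4.61 FPKM in H8, a log2 difference of -0.10 (edgeR adjusted p = 0.910). DHCR7 went the other way, at 1.77, 2.14 and 1.69 FPKM, a log2 difference of 0.45 (95% interval -0.10 to 1.01, edgeR adjusted p = 0.417). On the TMM scale every H8 library of DHCR7 was above NC (10.6% of all genes), while in FPKM they overlapped. The gap was narrow, at 10.15 CPM in H8 replicate 3 against 10.09 in NC replicate 1.

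H24 against H8 compares, by the labels, longer with shorter feeding of the high-fat diet. Length of feeding and time on study cannot be told apart here either. IDI1, SQLE and DHCR7 fell, and these 3 of 7 enzymes were called lower where 3.05% of all genes were. SQLE had a log2 difference of -2.86 (SE 0.57, edgeR adjusted p = 0.336), a 7.26-fold lower level, and no H24 library came near the lowest H8 value. SQLE and DHCR7 were below H8 in every H24 library, as were 6.31% of all genes. DHCR7 had -1.45 (SE 0.47, edgeR adjusted p = 0.341). IDI1 had -1.29 (SE 0.46, edgeR adjusted p = 0.341), with H8 replicate 3 at 3.84 FPKM below the highest H24 library at 4.25. After adjustment 0 of the 7 passed in edgeR, and 0% of all genes were lower by more than 1 on the log2 scale and passed. In DESeq2 SQLE alone passed, with 1.7% of all genes passing as lower.

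The other 4 enzymes were not called in this comparison. HMGCS1 had -0.83 (95% interval -2.02 to 0.35, edgeR adjusted p = 0.473), MVD 0.32, FDPS -0.18 and FDFT1 0.11. The median over the 7 was -0.83, with 0.04 over all genes. H8 replicate 2, which had the highest SQLE, HMGCS1, DHCR7 and MVD of its group, weighed on this comparison. Without it the median was -0.31 and SQLE alone was called, at -2.46 (edgeR adjusted p = 0.663), while DHCR7 was at -1.27 (edgeR adjusted p = 0.663) and IDI1 at -1.13 (edgeR adjusted p = 0.663). Without H24 replicate 1, SQLE alone was called as well, with DHCR7 at -1.35 and IDI1 at -1.02. IDI1 was also not called without H8 replicate 1 (-1.10) or H24 replicate 2 (-1.36), while SQLE was called in each of the 6 fits without a library. Without H8 replicate 3, 4 were called, with HMGCS1 at -1.23 (edgeR adjusted p = 0.567). That fit called 438 of 14752 genes lower. The fits without H8 replicate 2 and without H24 replicate 1 called 248 of 14892 and 484 of 14767 lower. NC and H8 are the denominators of separate comparisons with the same H24 libraries, so the falls of SQLE and IDI1 in both are not independent of each other.

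The summed level of the 7 enzymes was 42.3 to 46.0 FPKM in NC, 28.2 to 39.8 in H8 and 23.2 to 34.4 in H24. Of the 7, H24 replicates 1 and 2 had 6 below the lowest NC value and H24 replicate 3 had 5, where 23.4%, 33.4% and 36.1% of all genes lay below it in replicates 1 to 3. H8 replicates 1 and 3 had 5 below it and H8 replicate 2 had 3, where 34.9%, 45.9% and 30.1% of all genes lay below it in replicates 1 to 3. H24 replicate 3 combined the lowest SQLE and DHCR7 of all 9 libraries with the highest MVD. Macrophage markers were higher in H24 than in NC: 12 of 12 were called higher, where 9.95% of all genes were. Their summed FPKM was 28.4 to 47.6 in NC, 42.9 to 270.1 in H8 and 219 to 2562 in H24, with MARCO at 0 in all NC libraries. Within H24, replicate 3 had the highest sum of the enzymes (34.4) and of the macrophage markers (2562). Replicate 2 had the lowest of both (23.2 and 219). The order depended on the measure. The enzymes' median log2 difference from the NC mean was -0.449, -0.721 and -0.749 in H24 replicates 1 to 3, lowest in replicate 3.

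Smooth muscle markers were lower in 8 of 8 in H24 against NC (49.4% of all genes), with 0 called (1.52% of all genes were called lower). In edgeR 0 of them had an unadjusted p under 0.05. Their sums were 12042 to 14137 FPKM in NC, 10241 to 13832 in H8 and 1766 to 12129 in H24. Adipocyte markers, which bear on attached fat, summed to 111 to 184 FPKM in NC, 70.1 to 148 in H8 and 75.9 to 221 in H24. In H8 against NC 3 of 7 tested adipocyte markers were called lower (2.27% of all genes). In H24 against NC 2 of 8 were called higher (LEP and LPL; 9.95% of all genes), while 5 of 8 had negative differences and the median was -0.55. In H24 against H8, 5 of 8 adipocyte, 10 of 12 macrophage and 5 of 5 tested lymphocyte markers were called higher, where 7.22% of all genes were. Smooth muscle markers had negative differences there in 8 of 8 and fibroblast markers in 4 of 6 (47% of all genes). Of these 0 were called lower (3.05% of all genes), and the fibroblast marker LUM was called higher. IDI1, SQLE and DHCR7 were called lower in this comparison. ADIPOQ, which defines fat cells, was at 4.44 to 14.6 FPKM in NC, 0.08 to 0.11 in H8 and 7.24, 0.07 and 0.42 in H24 replicates 1 to 3. Of the lymphocyte markers 4 of 6 tested, and of the fibroblast markers 2 of 6, were called higher in H24 against NC (9.95% of all genes). The markers tested there numbered 5 for endothelium, 1 for skeletal muscle, 4 for hepatocytes and 3 for nerve. Of these 0 were called, and 0 had an unadjusted p under 0.05 in edgeR. In whole tissue, fewer cells of a type and less RNA per cell cannot be told apart, and the part of cell composition in the enzymes' levels was not tested.

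**Figure D2:**
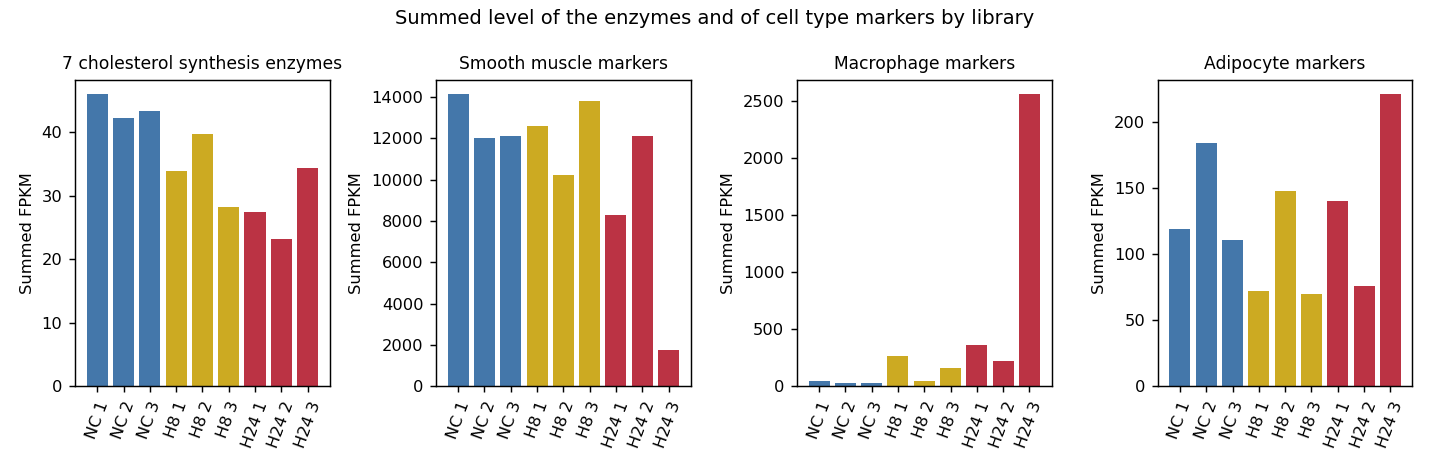
Summed FPKM (vertical axes, linear from 0, each with its own scale) of the 7 enzymes and of smooth muscle, macrophage and adipocyte markers, with a bar per library. The enzymes sum to 42.3 to 46.0 FPKM in NC and 23.2 to 34.4 in H24, while H24 replicate 3 stands out with a macrophage sum of 2562 and a smooth muscle sum of 1766.

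The rest of the pathway was followed with a list of 14 further enzymes, of which 13 had a row and were tested. In H24 against NC 3 of 13 were called lower (1.52% of all genes) and 0 higher (9.95% of all genes), and all 3 act after lanosterol is formed. CYP51A1, the lanosterol demethylase, had 5.27, 4.51 and 5.35 FPKM in NC and 1.63, 1.57 and 1.12 in H24, and fell by 1.83 on the log2 scale (SE 0.25, edgeR adjusted p = 0.129). SC5D, the desaturase just before DHCR7, fell by 1.85, and TM7SF2, a sterol reductase, fell by 1.48 (edgeR adjusted p = 0.345). The call of TM7SF2 ended when any 1 of 5 libraries was left out, with differences of -1.78 to -1.19 that missed the p threshold, and held only without H24 replicate 3 (-1.02), in which it was at 2.98 FPKM against 15.5 and 16.3 in the other H24 libraries.

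Set along the pathway, the 20 enzymes had 15 lower in H24 than in NC (49.4% of all genes), with 5 called lower (1.52% of all genes). The mevalonate steps had 0 of 5 called, the isoprene and farnesyl steps 1 of 3 (IDI1), the squalene steps 1 of 2 (SQLE) and the steps from lanosterol to cholesterol 3 of 10. Whether the steps differ from each other was not tested.

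In H8 against NC 2 of the 13 further enzymes were called lower (2.27% of all genes). TM7SF2 fell by 1.06 on the log2 scale (SE 0.24, edgeR adjusted p = 0.187) and was at 14.4, 13.7 and 13.3 FPKM in H8 against 23.9 to 41.7 in NC. FAXDC2 fell by 1.03 (edgeR adjusted p = 0.303), with H8 replicate 1 at 7.37 FPKM and the others at 2.61 and 2.48. Without NC replicate 2 neither was called (TM7SF2 -0.77, FAXDC2 -1.04), nor without H8 replicate 3 (-0.998 and -0.75). FAXDC2 was also not called without NC replicate 1 (-1.05), NC replicate 3 (-0.997) or H8 replicate 2 (-0.83). SC5D had a log2 difference of -0.57 (edgeR adjusted p = 0.241) and was short of the fold threshold. In H24 against H8 2 were called lower (3.05% of all genes), namely CYP51A1 (-2.06) and SC5D (-1.29). The call of SC5D ended without H8 replicate 2 (-1.22) and without H24 replicate 3 (-0.96).

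**Figure D3:**
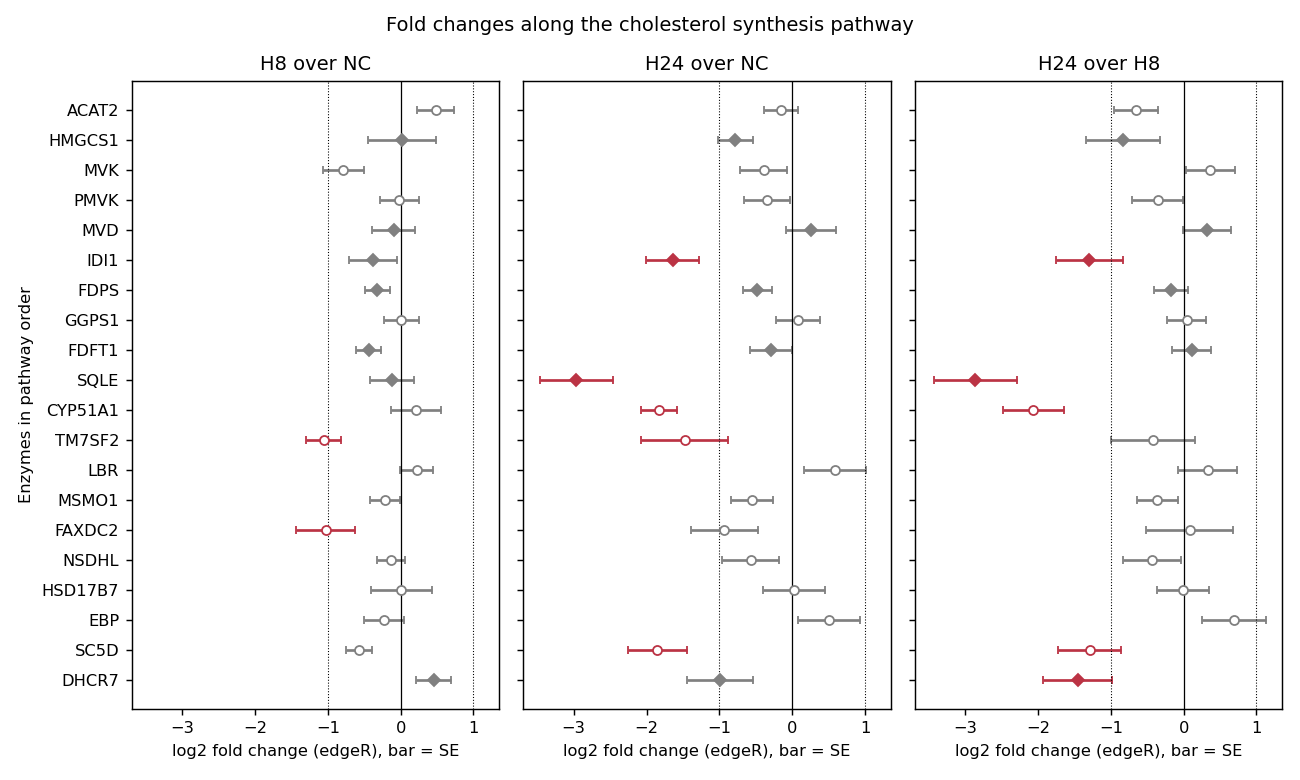
Log2 fold change (horizontal axis) with a bar of 1 SE for 20 enzymes in pathway order in the 3 comparisons. Filled diamonds are the 7 enzymes, open circles the further ones, red marks those called, and dotted lines mark the fold threshold. Red marks number 2 in H8 over NC, 5 in H24 over NC and 5 in H24 over H8, all to the left of 0.

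**Figure D4:**
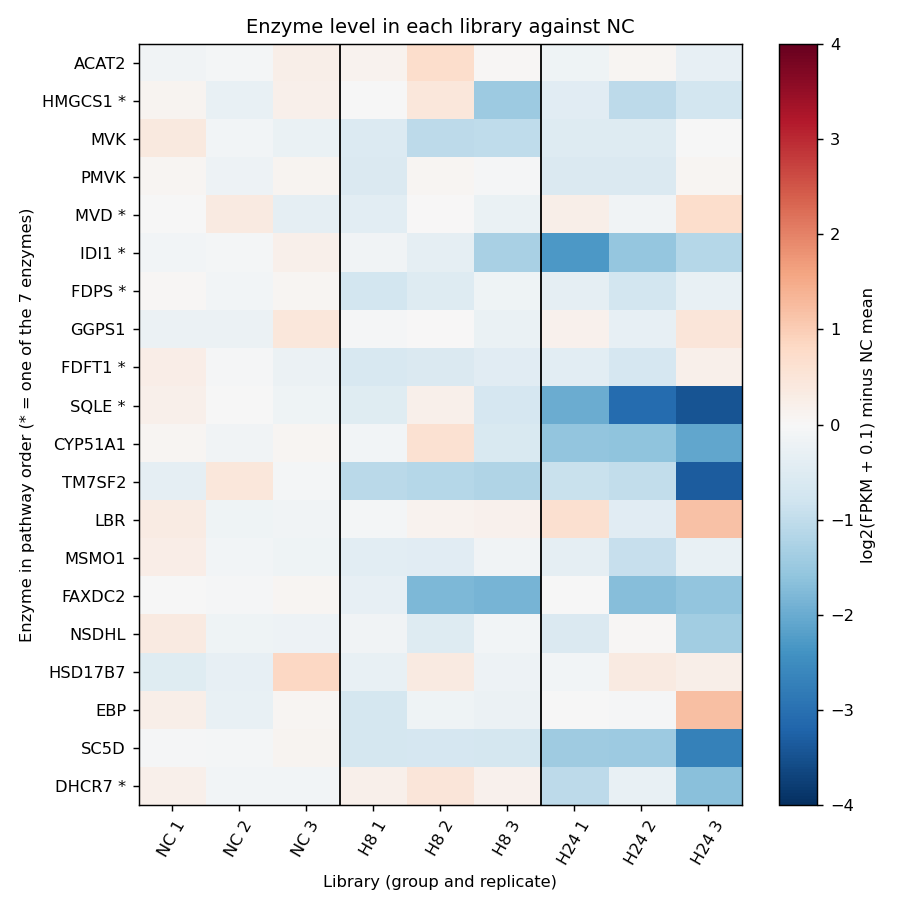
Difference of log2(FPKM + 0.1) from the NC mean (colour, blue below and red above) for 20 enzymes in pathway order (rows, the 7 enzymes starred) in the 9 libraries (columns). SQLE, CYP51A1 and SC5D are blue in all 3 H24 libraries, and the HMGCS1 cell of H8 replicate 3 is blue beside a red cell in H8 replicate 2.

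Genes that sense and move sterols were followed as a list of 17. In H24 against NC 1 of 15 tested was called lower (1.52% of all genes) and 6 higher (9.95% of all genes). SREBF2, which encodes SREBP-2, had 11.07, 10.5 and 13.6 FPKM in NC and 5.05, 6.47 and 5.85 in H24, and fell by 1.04 on the log2 scale (SE 0.22, edgeR adjusted p = 0.132). Its call ended without NC replicate 3 (-0.93) and without H24 replicate 1 (-0.92).

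The genes called higher act in holding SREBP-2 back, moving cholesterol out of lysosomes and cells and, for NR1H3, responding to oxidised sterols. INSIG1, which holds SREBP-2 back and is itself an SREBP target, rose by 2.07 (SE 0.51, edgeR adjusted p = 0.151), from 4.40 to 6.44 FPKM in NC to 18.8, 9.52 and 38.8 in H24. ABCA1 rose 16.97-fold (log2 4.08, edgeR adjusted p = 0.129) and ABCG1 13.7-fold (log2 3.77, edgeR adjusted p = 0.132). NR1H3, which encodes liver X receptor alpha, rose by 3.06 on the log2 scale, and NPC1 and NPC2, which release cholesterol from lysosomes, rose by 1.17 and 1.81. Without H24 replicate 3 NPC1 was at 0.42 and NPC2 at 0.58 and neither was called. Both calls also ended without any 1 of the NC libraries, at 1.08 to 1.27 for NPC1 and 1.75 to 1.85 for NPC2. Leaving out H24 replicate 3 put ABCA1 at 3.28, ABCG1 at 2.93, NR1H3 at 1.37 and INSIG1 at 1.396, all called. Macrophages also express these genes, and the macrophage marker sums above were likewise higher in H24 than in NC. In H8 against NC 7 of 10 tested macrophage markers were called higher (5.11% of all genes). ABCA1, ABCG1 and INSIG1 were called higher there as well, while NPC1, NPC2 and NR1H3 were not called. NR1H3 differed by -0.32 (edgeR adjusted p = 0.843), and by -1.27 to 0.14 with a library left out. The part of macrophages in these values was not tested.

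In H8 against NC 0 of 16 tested were called lower (2.27% of all genes), and 0 were lower at an unadjusted p under 0.05 in edgeR (5.92% of all genes). Called higher were 3 (5.11% of all genes): ABCA1 (1.58, edgeR adjusted p = 0.126), ABCG1 (1.66) and INSIG1 (1.16). INSIG1 rested on H8 replicate 1 at 20.4 FPKM, with the others at 5.64 and 6.35, and without that library it was at 0.34 and was not called. Its call also ended without any 1 of the NC libraries (1.05 to 1.37). ABCG1 was not called without H8 replicate 1 either (1.16), and its lowest H8 library at 0.910 FPKM lay below its highest NC library at 1.15. SREBF2 was not called in H8. It had 7.65 and 7.76 FPKM in H8 replicates 1 and 3, below the NC range, while H8 replicate 2 lay inside that range. In H24 against H8 4 of 16 tested were called higher (7.22% of all genes): ABCA1 (2.46), NR1H3 (3.32), ABCG1 (2.07) and NPC2 (1.53). STARD4, a sterol carrier, was called lower from few reads, where 3.05% of all genes were called lower. With H24 replicate 3 left out ABCA1 was at 1.69 and NR1H3 at 1.68, both still called, while ABCG1 was at 1.25 and NPC2 at 0.33 and neither was called. The call of ABCG1 also ended without H8 replicate 2 (1.70) or 3 (2.08), and that of NPC2 without any 1 of the H8 libraries (1.48 to 1.57).

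**Figure D5:**
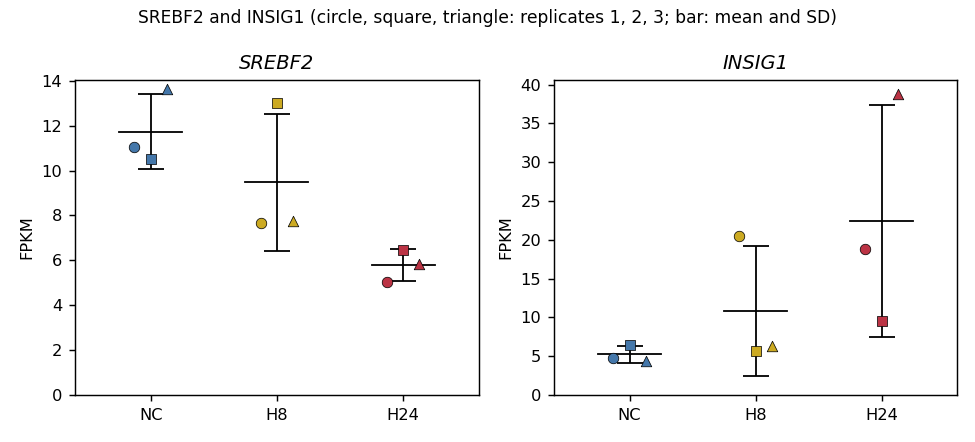
FPKM (vertical axis, linear from 0) of SREBF2 and INSIG1 by group, with a point per library, a line at the mean and a bar of 1 SD (n = 3). SREBF2 lies below NC in all 3 H24 libraries, INSIG1 lies above NC in all 3, and H8 replicate 2 (square) is the highest of H8 in SREBF2.

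The profile of the 7 enzymes over the 9 libraries was taken as their mean z-score of log2(FPKM + 0.1). It was 0.47 to 0.81 in NC, -0.34 to 0.33 in H8 and -0.92 to -0.22 in H24. Outside the lists, and among 10110 genes with a mean of at least 1 FPKM, those most like it by Pearson's r over 9 libraries were EMC6 (0.900, a subunit of the endoplasmic reticulum membrane complex), MRPL20 (0.892, a mitochondrial ribosomal protein), RPL22 (0.891, a cytosolic ribosomal protein), LDHB (0.887, lactate dehydrogenase B) and UEVLD (0.887). The 9 libraries fall into 3 groups, so these values describe shared differences between groups as much as shared variation between pigs. Each of the 7 was also set against the mean z-score of the others, itself left out, so these values are not comparable with those above. IDI1 had the highest r at 0.71, SQLE had 0.64, DHCR7 0.18 and MVD -0.21.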

How the data were processed

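Paired-end poly(A) reads were mapped by the authors with HISAT2 (version 2.0) to the pig genome Sscrofa11.1. For 21357 genes they deposited FPKM from StringTie (version 1.3.0) beside whole-number estimated counts, whose derivation and strand setting are not given in the sources used here. The submitters' processing notes also name Bowtie 0.12.2 and the mouse build mm8, which were not used here. Of 5119 genes without a symbol, 932 were given one through their gene ID.

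Libraries were grouped by the labels. The methods give separate pigs for NC and H24. Nothing says so for H8, where p-values measure only the spread between libraries, which may be technical. Counts were fitted in edgeR 4.0.16 (R 4.3.3 and the data.table package, version 1.17.8), with the 6 libraries of 2 groups per fit, TMM scaling, a floor of 0.1 on a gene's mean FPKM and the two-sided quasi-likelihood test. A gene was called at a log2 fold change beyond 1 and p under 0.05, the study's thresholds. Adjusted p-values are Benjamini-Hochberg over all genes tested. An exact permutation test of 3 against 3 libraries cannot go below p = 0.1, so none is used for calls. The method was tested on simulated counts with known changes. These held no outlying library, so that test does not bear on calls that depend on a single library. Alternatives used DESeq2 1.42.0 and limma 3.58.1 on log2(FPKM + 0.1) and log2(FPKM + 1). Depth was 44094263 to 75787978 counts.

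The enzymes, lists and rules were chosen with earlier results of these data known. Named genes were the enzymes, listed genes called in at least 1 comparison, SREBF2, INSIG1, and the 5 genes of most like profile. Some genes of the lists are not reported here and are left out of the list counts and figures. No sequences are shown. Figures were drawn with matplotlib 3.10.9 (Python 3.11.15).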

Additional observations from a re-analysis of the deposited data

Results flagged for a closer look

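Among the enzymes, 3 of 7 were called lower after 24 than after 8 weeks of the high-fat diet by the direct edgeR test of H24 against H8 at an unadjusted p, where 3.05% of all genes were. IDI1 differed by -1.29 on the log2 scale (edgeR adjusted p = 0.341), SQLE by -2.86 (edgeR adjusted p = 0.336) and DHCR7 by -1.45 (edgeR adjusted p = 0.341). None passed after adjustment over all genes in edgeR. The call of IDI1, whose H8 and H24 libraries overlapped, ended in 4 of the 6 fits without a library and with the replicate block, that of DHCR7 ended in 2 of 6, and that of SQLE held in all 6. The same test called CYP51A1 (-2.06) and SC5D (-1.29) among the further enzymes. Groups of 3 libraries are too small for a test of single outlying libraries.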

How the results depend on the processing

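Values are log2 fold changes and, where counts are named, numbers of enzymes called. With 1 library left out at a time, the 7 enzymes had 2 to 3 called lower in H24/NC, 0 in H8/NC (0 to 0) and 1 to 4 in H24/H8, and medians of -0.90 to -0.66, -0.51 to -0.0094 and -1.23 to -0.31. The further enzymes had 2 to 3, 0 to 2 and 1 to 2 called. Over all genes these fits called 137 to 456 lower in H24/NC, 251 to 448 in H8/NC and 248 to 684 in H24/H8. They tested 14256 to 14892 genes. The median of the 7 in H24/NC was -0.53 with limma on log2(FPKM + 1), and in H8/NC -0.34 with limma on log2(FPKM + 0.1). In H24/H8 it was -0.58 with library size only, -0.41 and -0.37 with the 2 limma settings and -0.60 with the replicate block. Limma on log2(FPKM + 1) called 1 of the 7 and 1 further enzyme lower in H24/H8, where it called 177 of 14788 genes. A fit of all 9 libraries called 0 further enzymes in H8/NC, where it called 276 of 14721 genes lower. Alternatives chosen after seeing the data left out enzymes: without IDI1, 1 was called in H24/NC and medians were -0.63 (H24/NC) and -0.50 (H24/H8), and without FDFT1, FDPS and DHCR7, whose rows overlap other genes, they were -1.21 and -1.06. The sign turned for HMGCS1 in H8/NC with library size only (-0.17), the replicate block (-0.19) and limma (-0.34 and -0.26), for CYP51A1 in H8/NC with limma (-0.040 and -0.023) and for FDPS in H24/H8 with library size only (0.023) and limma (0.013 and 0.011). Leaving out 1 library turned the sign within these ranges: in H24/NC MVD -0.0040 to 0.49, in H8/NC HMGCS1 -0.51 to 0.42, MVD -0.32 to 0.14, SQLE -0.52 to 0.080, CYP51A1 -0.27 to 0.49, SREBF2 -0.54 to 0.014 and NR1H3 -1.27 to 0.14, and in H24/H8 FAXDC2 -0.67 to 0.75, FDFT1 -0.17 to 0.25 and TM7SF2 -0.75 to 0.029. The cause was not tested.

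Over all genes, library size only gave 459 lower and 576 higher calls in H8/NC against 326 and 733 with TMM, and 290 and 1447 in H24/H8 against 451 and 1068. At an adjusted p under 0.05 and a log2 change beyond the fold threshold, DESeq2 passed 954 genes in H24/NC and 616 in H8/NC. By the same rule edgeR without H24 replicate 3 passed 306 in H24/NC, 2 of them SQLE and IDI1. The DESeq2 shares given with the comparisons above use the adjusted p alone. Replicate numbers did not pair the libraries: the 9 same-numbered pairs correlated at -0.080 to 0.093 in their deviations from group means. The replicate block called 2 of the 7 lower in H24/NC, 0 in H8/NC and 2 in H24/H8, where IDI1 was lost. Over all genes it called 250 of 14828, 311 of 14336 and 475 of 14788 lower. In H24, SQLE rests on 79 to 300 counts, and precision is limited by 3 libraries a group more than by depth.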

Other observations

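Fatty acid synthesis, the other lipid pathway under SREBP control, was followed with 14 genes, and the genes named here were chosen after their values were seen. In H24 against NC 1 was called lower (1.52% of all genes) and 1 higher (9.95% of all genes), and the median log2 fold change was -0.07. FADS1, a desaturase of polyunsaturated fatty acids, fell by 2.46 on the log2 scale (SE 0.54, edgeR adjusted p = 0.132), from 21.6, 8.94 and 18.9 FPKM in NC to 1.998, 5.22 and 1.73 in H24. SCD, the stearoyl-CoA desaturase, rose by 3.17 (SE 0.92, edgeR adjusted p = 0.207), to 36.2, 13.4 and 185 FPKM in H24 from 6.57 to 9.89 in NC. In H8 against NC 2 of the 14 were called lower (2.27% of all genes). FADS1 fell by 1.08, and THRSP, a regulator of fat synthesis, had 0.00 to 0.09 FPKM in H8 and 0.55 to 3.93 in NC. Without H24 replicate 3 SCD differed by 1.49 and FADS1 by -2.19 from NC, both still called. The H8 call of FADS1 ended without NC replicate 1 (-0.85) or 3 (-0.97). The highest SCD value was in H24 replicate 3, the library with the highest macrophage marker sum of 2562 FPKM. The part of cell composition in these values was not tested.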
